A study of Mus musculus with 6 samples.

Results

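Mouse embryonic stem (ES) cells carry several ribosomal protein genes in 2 versions, a canonical gene and a diverged paralogue. The messenger RNA of 5 such pairs is described here, 10 genes of the 55401 in the deposited count table, found by the Ensembl identifiers of the symbols Rpl39l and Rpl39, Rpl22l1 and Rpl22, Rps27l and Rps27, Rpl7l1 and Rpl7, and Rpl36al and Rpl36a. The set was chosen by name and in part by a measured value, the fall of Rpl39l between the groups compared below, so the Rpl39l values are given as a description with no test. The other 9 genes entered as its canonical partner and as further pairs of the same kind. The members were chosen with earlier results of these data known, so the tests of these 9 are not free of that choice. All 10 passed the filter on low counts, which left 17778 genes for the tests.

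The series asks how transcripts respond when TAF13 is lost, which is one of the proteins of TFIID, the general factor that places RNA polymerase II at promoters. There are 3 libraries labelled KO, from cells given doxycycline, and 3 libraries from untreated cells labelled as expressing 3XHA-Taf13, called expressing libraries below. Culture lasted 7 days in both groups, each library came from its own Petri dish, and both groups are ES cells by their labels. Drug and label always go together, so the effects of doxycycline and of the KO state cannot be told apart. The labels name 3 separate dishes per group and do not say whether these share a clone or a starting culture.

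Ribosomal proteins are made in equal amounts for each ribosome, and their messenger RNAs are among the most abundant of a growing cell. Paralogues arose by copying of a canonical gene, some through an RNA intermediate, and can take the place of the canonical protein in part of the ribosomes or work outside them. Rpl39l is known from male germ cells of the mouse and from ES cells, and Rps27l as a gene that p53 can induce.

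Read depth was 33953189 to 50328010 counts in the libraries labelled KO and 31219328 to 45957003 in the expressing libraries. Taf13 itself had 422, 634 and 699 counts in the libraries labelled KO, against 244, 445 and 447 in the expressing libraries. Scaled to library size, its mean was still higher in the libraries labelled KO, and the ranges of the groups overlapped. The log2 fold change of 0.40 did not pass (adjusted p = 0.0578, edgeR). These counts do not separate the tagged from the chromosomal gene, so the directions rest on the labels. Expressing replicate 1 stood apart from the others of its group (chi-square per degree of freedom 33.9 and 27.5 in its pairs, at most 5.67 in the others), and its deviation from the group mean followed GC content across genes. All 8 ES cell markers on the list were detected, and their summed level was 1513 to 1557 CPM (counts scaled to library size, in the usual per-million unit) in the libraries labelled KO, against 2590 to 2762 CPM in the expressing libraries. All 8 fell, Zfp42 (log2 fold change -1.37) and Nanog (-1.24) by the most. The 8 primitive endoderm markers summed to 401.8 to 439 CPM in the libraries labelled KO and 77.1 to 88.4 CPM in the expressing libraries, and all 8 rose, Cubn (3.41) and Sox17 (3.23) by the most. The 8 fibroblast markers summed to 94.2 to 178 CPM in the libraries labelled KO and 104.5 to 133 CPM in the expressing libraries, with 2 higher (Dcn, 2.10, and Postn, 1.65), 1 lower (Thy1, -0.89) and 5 that did not pass, and none of these 24 markers was at 0 in every library. Of all tested genes, 20.8% were called lower and 19.2% higher by the test described below. The part of the markers in the results below was not tested.

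The coding sequences of the 2 pairs that are short enough to print whole are shown first. Their differences help to assign a read from the coding part to 1 gene of a pair. For Rpl39l and Rpl39 that part is 156 bases, of reference transcripts of 805 and 612 bases. The sequences come from the GENCODE M21 transcripts of the mm10 build and run 5′ to 3′ from start to stop codon. Capitals mark each base that differs between the 2 genes. Rpl39l lies at chr16:10170226-10174911 on the plus strand with its coding part in 1 exon, and Rpl39 at chrX:37082520-37085402 on the minus strand with its coding part in 3 exons.
Rpl39l: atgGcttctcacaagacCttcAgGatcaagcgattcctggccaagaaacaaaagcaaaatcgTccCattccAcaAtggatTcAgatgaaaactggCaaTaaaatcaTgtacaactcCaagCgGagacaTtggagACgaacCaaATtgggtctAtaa
Rpl39: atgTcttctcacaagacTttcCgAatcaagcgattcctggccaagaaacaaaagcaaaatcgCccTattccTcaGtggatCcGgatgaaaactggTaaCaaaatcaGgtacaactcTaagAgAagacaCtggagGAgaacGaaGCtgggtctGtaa

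These 2 sequences differed at 23 of 156 bases (85.3% identity), in 21 codons, of which 3 encode another residue. Rps27l lies at chr9:66946086-66949516 on the plus strand and Rps27 at chr3:90212522-90213651 on the minus strand. Their coding sequences, shown for a pair in which the canonical gene has a further copy, differed at 61 of 255 bases (76.1% identity), in 54 codons, of which 3 encode another residue.
Rps27l: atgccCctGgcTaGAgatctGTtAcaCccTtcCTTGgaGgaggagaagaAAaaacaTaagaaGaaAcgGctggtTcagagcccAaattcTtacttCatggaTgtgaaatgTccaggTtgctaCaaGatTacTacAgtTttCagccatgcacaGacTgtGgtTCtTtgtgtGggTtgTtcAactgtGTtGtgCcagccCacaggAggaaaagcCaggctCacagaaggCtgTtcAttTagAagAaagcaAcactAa
Rps27: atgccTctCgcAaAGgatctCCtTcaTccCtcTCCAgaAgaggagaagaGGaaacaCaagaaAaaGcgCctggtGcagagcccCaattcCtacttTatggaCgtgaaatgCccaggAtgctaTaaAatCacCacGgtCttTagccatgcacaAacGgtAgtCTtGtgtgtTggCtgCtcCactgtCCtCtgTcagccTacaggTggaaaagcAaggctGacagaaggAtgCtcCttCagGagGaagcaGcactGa

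The coding sequence of Rps27 is identical over all 255 bases to that of Rps27rt, a separate gene at chr9:114982366-114982739. Rpl22l1 (chr3:28805436-28807424, plus strand) and Rpl22 (chr4:152325742-152334071, plus strand) are more diverged, with 70.2% identity over 369 aligned coding bases. Bases 1 to 150 of each are shown for the pair whose paralogue had the lowest fold change of the 10 genes, with capitals for bases that differ or have no partner in the alignment.
Rpl22l1: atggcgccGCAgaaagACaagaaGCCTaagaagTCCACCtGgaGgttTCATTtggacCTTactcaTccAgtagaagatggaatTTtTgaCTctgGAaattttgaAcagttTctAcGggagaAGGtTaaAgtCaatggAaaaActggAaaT
Rpl22: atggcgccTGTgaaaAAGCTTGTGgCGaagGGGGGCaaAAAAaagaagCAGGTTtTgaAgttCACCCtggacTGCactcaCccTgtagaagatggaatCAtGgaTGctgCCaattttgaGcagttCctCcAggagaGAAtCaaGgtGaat

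Rpl7l1 (chr17:46773907-46782672, minus strand) and Rpl7 (chr1:16101295-16104662, minus strand) had 62.6% identity over 711 aligned coding bases, the lowest of the 5 pairs. Rpl36al (chr12:69182731-69184083, minus strand, coding part in 1 exon) and Rpl36a (chrX:134585654-134588062, plus strand) differed at 39 of 321 coding bases, and 0 of the 38 codons that differ encode another residue. The encoded proteins of that pair are therefore identical in this annotation.

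How far a read can be told from one of another gene was measured on the reference transcript of each gene. The measure was the share of windows of 50 or 100 bases found unchanged, on either strand, in a transcript of another annotated gene. A window that matches only an antisense gene thus counts as shared, although a stranded kit can tell such reads apart. Rpl39l shared none of its windows at either length, and Rpl39 shared 16.5% at 50 bases and 1.75% at 100 bases. Rps27 stood at the other end, with 98.6% and 98.4%, against 22.4% and 0% for Rps27l. Rpl36a shared 85.5% and 83.6%, mostly with the pseudogene Rpl36a-ps2 and with Rpl36a-ps1, which is annotated as protein-coding. Rpl36al shared 63.3% and 59.0%, mostly with Gm49383, a gene that overlaps it by 332 exonic bases on the same strand. Rpl22l1 shared 65.6% and 50.8%, mostly with the pseudogene Gm15421 and the antisense gene Gm33051, which overlaps 159 of its exonic bases. Rpl22, Rpl7l1 and Rpl7 shared 5.2%, 9.19% and 53.3% at 50 bases, and 0%, 1.68% and 28.2% at 100 bases. No source used here gives the read length or the treatment of reads that match several genes.

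**Figure D1:**
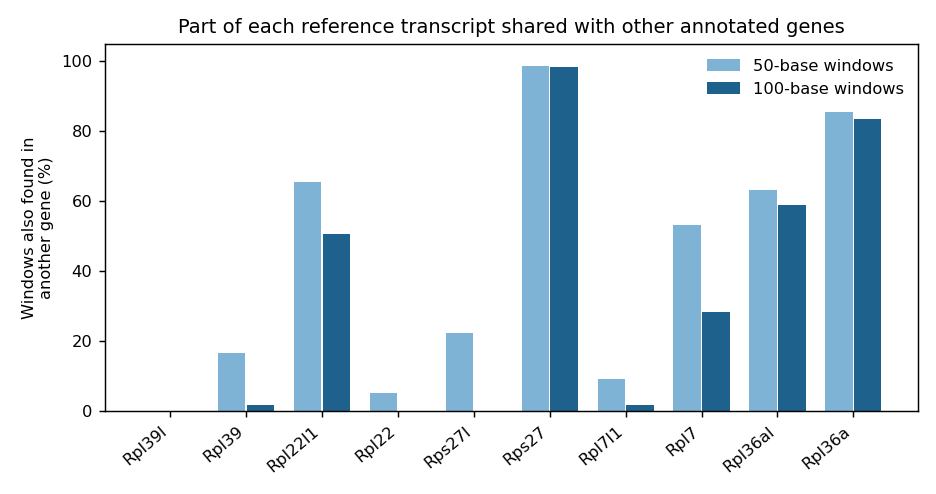
Percent of windows of each reference transcript (y axis) that also occur, on either strand, in a transcript of another annotated gene, for the 10 genes (x axis) at window lengths of 50 and 100 bases. Rps27 and Rpl36a share over 83% at both lengths, and Rpl39l shares 0%.

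Across the 79 canonical ribosomal protein genes (the 74 other genes of the list and the 5 canonical members), the level was lower where more windows were shared, and the fold change was nearly the same. The 36 genes that shared more than 50% of their 100-base windows had a median of 11.4 CPM per kb of exon in the expressing libraries, against 77.05 CPM per kb in the other 43 genes. Spearman's rho across the 79 genes was -0.63 between shared percent and level, and 0.03 between shared percent and log2 fold change. The median log2 fold change was -0.52 in the 36 genes and -0.53 in the other 43. These genes share the same libraries and are not independent replicates, so the values are descriptive. Rps27, Rpl36a, Rpl36al and Rpl22l1 each had more than 50% of their windows shared at both lengths, and Rpl7 at 50 bases alone (53.3%). The level of each of these genes is uncertain to that extent when set beside another gene, and so is its share of a pair.

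The canonical members and their paralogues were mostly lower in the libraries labelled KO. Of the 9 genes other than Rpl39l, 7 were called lower and 0 higher (edgeR quasi-likelihood test, Benjamini-Hochberg adjusted p under 0.05 over all 17778 genes), while 20.8% of all tested genes were called lower and 19.2% higher. At an unadjusted p under 0.05, 1 of the 9 was higher (Rps27l), and DESeq2 called 0 higher and 7 lower. The split over the whole table was 3422 genes higher and 3695 lower, and it was 4466 higher and 2570 lower when only total counts set the scale. The CPM ranges of the groups did not overlap for any of the 9 genes other than Rpl39l, which was also the case for 53.5% of all tested genes. In these bulk libraries, fewer cells that carry a transcript and less of it per cell cannot be told apart.

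Rpl39l, whose product replaces RPL39 at the peptide exit tunnel of the large subunit, had 412, 517 and 567 counts in KO replicates 1 to 3, against 1548, 2167 and 1855 in expressing replicates 1 to 3. Scaled to library size these were 11.81, 11.47 and 10.99 CPM in the libraries labelled KO and 49.6, 49.1 and 50.8 CPM in the expressing libraries. The spread within each group was small beside the gap between them, and every library labelled KO lay below every expressing one. The log2 fold change, the libraries labelled KO over the expressing libraries, was -2.13 (SE 0.0701), a mean level 22.9% of that in the expressing libraries, and it is the value for which the set was in part chosen.

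Rpl39, the canonical gene, had 71.4, 60.8 and 60.3 CPM in the libraries labelled KO, against 82.0, 81.5 and 79.0 CPM in the expressing libraries. It was lower by a far smaller step than its paralogue, with a log2 fold change of -0.33 (SE 0.0759, adjusted p = 0.00693, edgeR). The log2 ratio of Rpl39l to Rpl39 counts, in which library size cancels, was -2.59, -2.41 and -2.46 in KO replicates 1 to 3, against -0.72, -0.73 and -0.64 in expressing replicates 1 to 3. Counts of Rpl39l per 100 of Rpl39 were thus 17.9 ± 1.20 in the libraries labelled KO and 61.7 ± 2.21 in the expressing libraries (SD, n = 3 each). Per kb of union exon length the paralogue made up 23.6% ± 1.21 of the pair in the libraries labelled KO, against 51.6% ± 0.887 in the expressing libraries. With the length of the one reference transcript of each gene, an alternative added after the data were seen, these shares were 12.0% and 31.9%.

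Rpl22l1 had the lowest fold change of the 10 genes. RPL22 is an RNA-binding protein of the large subunit that is known in mouse cells to bind the Rpl22l1 messenger RNA and to hold its level down. Rpl22l1 had 526, 613 and 725 counts in KO replicates 1 to 3 and 1957, 3401 and 2796 in expressing replicates 1 to 3, or 15.1, 13.6 and 14.1 CPM in the libraries labelled KO, against 62.7, 77.1 and 76.5 CPM in the expressing libraries. Expressing replicate 1 was the low one of its group, and all 3 expressing libraries lay above those labelled KO. The log2 fold change was -2.34 (SE 0.0965, 95% interval -2.56 to -2.13, adjusted p = 9.6e-07, edgeR), and without expressing replicate 1 it was -2.41. Of the genes that share its sequence, the pseudogene Gm15421 had 40 counts in all over the libraries labelled KO and 25 over the expressing libraries, a log2 fold change of 0.43 that did not pass (adjusted p = 0.346, edgeR), and Gm33051 had 1 count in each group.

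Rpl22 fell with its paralogue, by less. It had 291, 283 and 299 CPM in the libraries labelled KO, against 399.9, 410.1 and 389.9 CPM in the expressing libraries (log2 fold change -0.46, SE 0.0526, adjusted p = 1.6e-04, edgeR). Per 100 counts of Rpl22 there were 4.89 ± 0.251 counts of Rpl22l1 in the libraries labelled KO and 18.0 ± 2.08 in the expressing libraries (SD, n = 3 each). The difference in the log2 ratio was -1.88, with group SDs of 0.0733 and 0.172. The groups did not overlap, and the two-sided exact permutation p was 0.1, the smallest that 3 libraries against 3 can give (0.133 adjusted over the 4 pairs tested). Per kb of union exon length Rpl22l1 made up 6.68% ± 0.320 of the pair in the libraries labelled KO, against 20.9% ± 1.93 in the expressing libraries. With the reference transcripts in place of union exons the shares were 15.4% and 40.04%, since the annotated exons of Rpl22l1 span 1989 bases and its reference transcript 552.

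**Figure D2:**
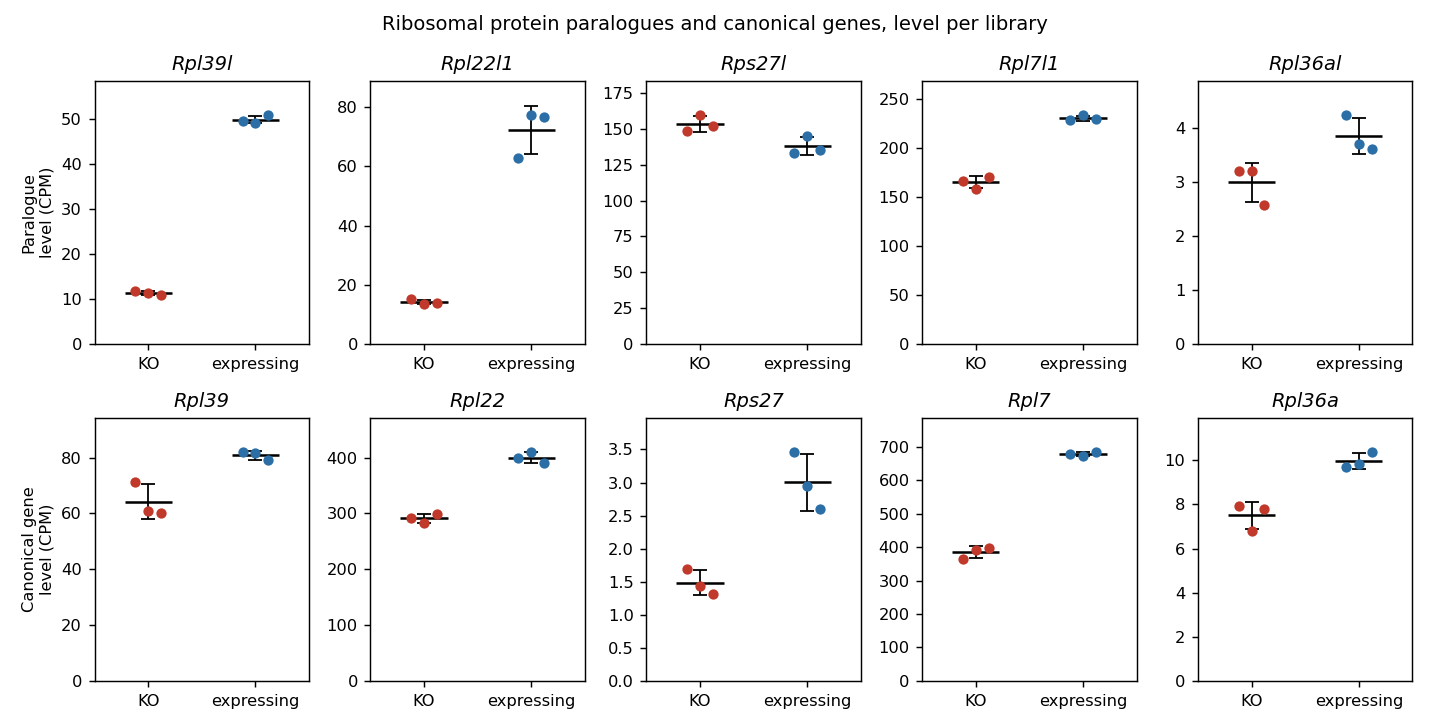
Level in CPM (y axes, each from 0) of the 5 paralogues (upper row) and their canonical genes (lower row) in the 3 libraries labelled KO and the 3 expressing libraries, 1 point per library, with the mean and SD as lines. Rpl39l and Rpl22l1 are at 22.9% and 19.7% of their expressing mean in the libraries labelled KO, and Rps27l is the gene that is higher there.

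Rps27l was the one member with a fold change above 0. It encodes a close copy of the zinc-finger protein RPS27 of the small subunit. It had 148, 159 and 152 CPM in the libraries labelled KO, against 133, 145 and 135 CPM in the expressing libraries, which is slightly higher in all 3 libraries labelled KO. The log2 fold change was 0.15 (SE 0.0596, 95% interval 0.02 to 0.29) and did not pass after adjustment (adjusted p = 0.068, edgeR). It passed without expressing replicate 1 (0.16, adjusted p = 0.00235), without expressing replicate 2 (0.19, adjusted p = 0.0493) and with scaling by total counts (0.24, adjusted p = 0.0105), a scaling under which the median of all tested genes moved to 0.08, against -0.01 in the fit reported. With the GC trend removed it was 0.09 (adjusted p = 0.189), and 0.09 with the replicate block as well (adjusted p = 0.182). Over the 14 alternatives its adjusted p ran from 0.00235 to 0.238, with a fold change above 0 in each.

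Rps27 was counted at 59, 65 and 68 reads in KO replicates 1 to 3, against 108, 130 and 95 in expressing replicates 1 to 3, so its values rest on few reads. These are 1.69, 1.44 and 1.32 CPM in the libraries labelled KO and 3.46, 2.95 and 2.60 CPM in the expressing libraries, with no overlap (log2 fold change -1.02, SE 0.168, adjusted p = 0.00125, edgeR). Rps27rt, identical in its coding sequence, had similar counts (54, 59 and 77 in KO replicates 1 to 3, 95, 129 and 90 in expressing replicates 1 to 3) and a similar fold change of -0.96 (SE 0.155, adjusted p = 0.00115, edgeR). The part of this shared sequence in either value was not tested. The log2 ratio of Rps27l to Rps27 was 6.70 ± 0.213 in the libraries labelled KO and 5.53 ± 0.229 in the expressing libraries (SD, n = 3 each), a difference of 1.17 without overlap (exact permutation p = 0.1, adjusted 0.133), and 1.04 without expressing replicate 1. The level of Rps27l per kb exceeded that of Rps27 by this count in every library, and with 98.4% of the 100-base windows of Rps27 shared that order is not interpretable as one of transcript abundance.

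**Figure D3:**
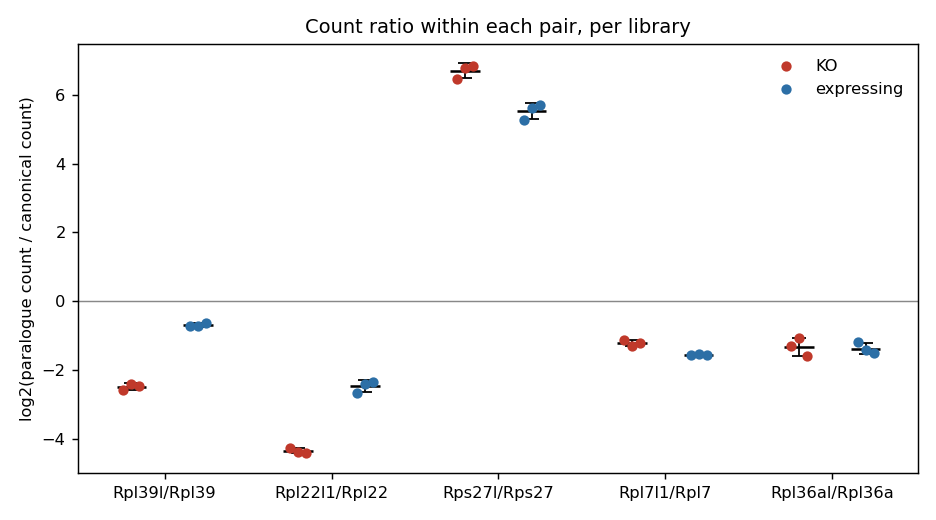
Log2 of the paralogue count over the canonical count (y axis) in each library for the 5 pairs (x axis), with group mean and SD as lines. The libraries labelled KO lie below the expressing libraries for Rpl39l/Rpl39 and Rpl22l1/Rpl22, above them for Rps27l/Rps27 and Rpl7l1/Rpl7, and among them for Rpl36al/Rpl36a.

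Rpl7 had the lowest fold change of the canonical members that are counted at high depth. RPL7 is a large-subunit protein, whereas RPL7L1 is related to the yeast factor Rlp7, which acts in the nucleolus during assembly of the large subunit. Rpl7 had 364, 391 and 399 CPM in the libraries labelled KO, against 679, 672 and 684 CPM in the expressing libraries (log2 fold change -0.82, SE 0.0545, adjusted p = 7.7e-06, edgeR). Rpl7l1 had 166, 159 and 171 CPM in the libraries labelled KO, against 228, 233 and 229.6 CPM in the expressing libraries (-0.48, SE 0.0542, adjusted p = 1.43e-04, edgeR). Both genes fell, the canonical one by more, so the log2 ratio of Rpl7l1 to Rpl7 was higher in the libraries labelled KO, at -1.22 ± 0.0839 against -1.56 ± 0.0272 in the expressing libraries (SD, n = 3 each). That difference of 0.34 had no overlap between groups and an exact permutation p of 0.1 (adjusted 0.133). Per kb of union exon length Rpl7l1 made up 24.8% ± 1.09 of the pair in the libraries labelled KO, against 20.7% ± 0.310 in the expressing libraries. The pair's summed level was 190.4 ± 7.16 CPM per kb in the libraries labelled KO, against 318 ± 1.76 CPM per kb in the expressing libraries.

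Rpl36a fell, and Rpl36al had a similar fold change that did not pass the test. They encode the same large-subunit protein, which sits by the exit site of the transfer RNA. Rpl36a had 7.91, 6.79 and 7.81 CPM in the libraries labelled KO, against 9.71, 9.84 and 10.4 CPM in the expressing libraries (log2 fold change -0.41, SE 0.0983, adjusted p = 0.00888, edgeR). Rpl36al had 112, 144 and 133 counts in KO replicates 1 to 3 and 132, 163 and 132 in expressing replicates 1 to 3, or 3.21, 3.19 and 2.58 CPM in the libraries labelled KO, against 4.23, 3.70 and 3.61 CPM in the expressing libraries. Its log2 fold change was -0.36 (SE 0.139, 95% interval -0.68 to -0.05), which did not pass (adjusted p = 0.0628, edgeR; 0.0419 to 0.226 over the 14 alternatives, and under the threshold with the GC trend removed, with or without the replicate block). The log2 ratio of the pair was -1.33 ± 0.257 in the libraries labelled KO and -1.38 ± 0.164 in the expressing libraries (SD, n = 3 each), a difference of 0.05 that was smaller than either SD (exact permutation p = 0.8). Without KO replicate 2 it was -0.07 and without expressing replicate 3 it was -0.02, so its direction is not set. The pseudogene Rpl36a-ps2, which shares windows with Rpl36a, had 159 counts in all over the libraries labelled KO and 202 over the expressing libraries (log2 fold change -0.58, adjusted p = 0.0176, edgeR).

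The other 74 cytosolic ribosomal protein genes were mostly lower as well. Against 20.8% of all tested genes called lower and 19.2% higher, 61 of these 74 were called lower and 0 higher by edgeR. For them, DESeq2 and an unadjusted p under 0.05 also gave 0 higher. The median of their log2 fold changes was -0.53, and that of all tested genes -0.01. Their counts were 34 of 43 lower for the large subunit and 27 of 31 for the small subunit, and their summed level was 7973 to 8203 CPM in the libraries labelled KO and 11850 to 13220 CPM in the expressing libraries. Rplp1, a protein of the ribosomal stalk, had the lowest value (-1.86, SE 0.103), followed by Rpl10a (-1.23, SE 0.0855), and in the small subunit Rps12 (-1.16, SE 0.0648) and Rpsa (-1.08, SE 0.108). The canonical members fell inside this range: 58 of the 74 had a lower fold change than Rpl39, 52 than Rpl36a, 48 than Rpl22, 13 than Rpl7 and 8 than Rps27. Among the paralogues, none of the 74 had a lower fold change than Rpl39l or Rpl22l1. The set was chosen in part for the fall of Rpl39l, so that gene's place below the 74 is no separate result. A higher fold change than that of Rps27l was seen in 1 of the 74 (Rpl19 at 0.17, which did not pass). Of the 74, 46 had a lower fold change than Rpl7l1 and 58 a lower one than Rpl36al.

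**Figure D4:**
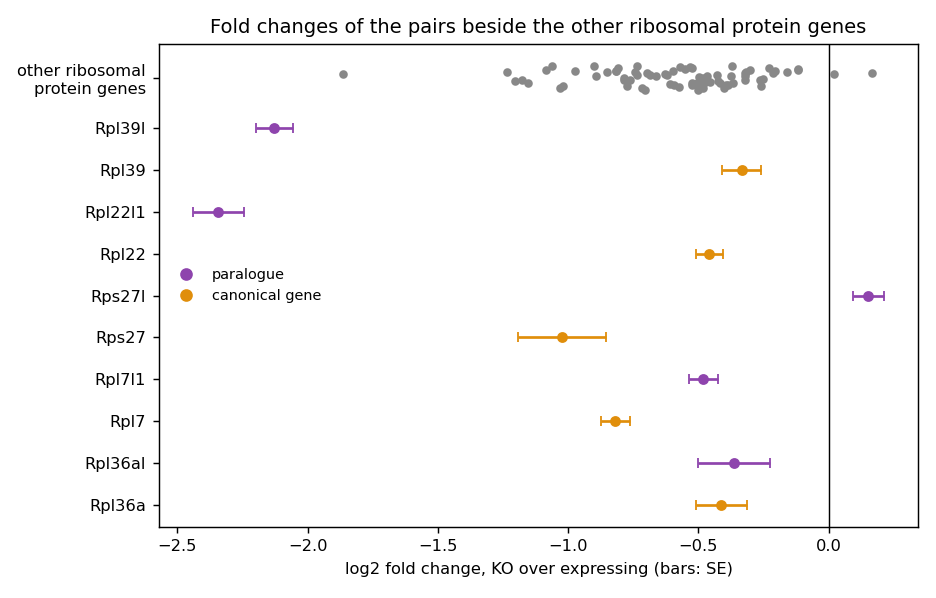
Log2 fold change, libraries labelled KO over expressing libraries (x axis), of the 10 members with their SE, and of the 74 other ribosomal protein genes as grey points (spread vertically for visibility). Rpl39l at -2.13, the value for which the set was in part chosen, and Rpl22l1 at -2.34 lie left of all grey points. Rps27l at 0.15 lies right of all but 1.

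Both genes of each pair were also summed per kb of union exon length. Sums and levels per kb depend on the length used, and no other length was tried for them, the Rpl7 pair above included. The annotated exons of Rpl22l1 span 1989 bases and its reference transcript 552. Which gene of the Rpl22 pair has the larger gap therefore depends on that choice. The Rpl39 pair summed to 58.5 ± 4.79 CPM per kb in the libraries labelled KO and 116 ± 0.468 CPM per kb in the expressing libraries, and the Rpl22 pair to 107 ± 2.92 CPM per kb in the libraries labelled KO and 173.6 ± 5.48 CPM per kb in the expressing libraries (SD, n = 3 each). In the Rpl39 pair the paralogue had the larger gap, with 13.7 ± 0.497 CPM per kb in the libraries labelled KO against 59.98 ± 1.01 CPM per kb in the expressing libraries, while Rpl39 stood at 44.7 ± 4.36 CPM per kb in the libraries labelled KO and 56.4 ± 1.1 CPM per kb in the expressing libraries. In the Rpl22 pair, Rpl22l1 stood at 7.16 ± 0.382 CPM per kb in the libraries labelled KO against 36.3 ± 4.10 CPM per kb in the expressing libraries, and Rpl22 at 100.04 ± 2.78 CPM per kb in the libraries labelled KO and 137 ± 3.47 CPM per kb in the expressing libraries.

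The genes whose profile over the 6 libraries was nearest to that of Rpl39l were sought among the 9404 other tested genes of at least 10 CPM on average, by the Euclidean distance between log2 CPM values centred on each gene's mean. In order of distance they were Zfas1, a noncoding host gene of small nucleolar RNAs (0.228), Atf4, the transcription factor of the integrated stress response (0.231), Lncenc1, a long noncoding RNA (0.27), Ccnb1ip1 (0.324) and Rpl22l1 (0.359). Zfas1 had 19.5 ± 0.477 CPM in the libraries labelled KO against 77.4 ± 3.78 CPM in the expressing libraries, and Atf4 43.6 ± 2.21 CPM in the libraries labelled KO against 210.7 ± 8.93 CPM in the expressing libraries (SD, n = 3 each). With 3 libraries in each group the distance mostly reflects the size of the step between groups, and it carries no test. The canonical partner Rpl39 ranked 1422 by this measure, Rpl7 219 and Rps27l 6902.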

How the data were processed

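Poly(A) RNA of 6 mouse ES cell libraries was sequenced with a stranded kit, per the labels' protocols. The authors deposited whole-number read counts per Ensembl gene, not normalized. The submitters' processing notes name the mm10 build and the tools STAR 2.5.3a, HTSeq 0.6.1p1, bcl2fastq 2.20.0.422 and cutadapt 1.10. The strand option, annotation release and handling of multiply matching reads were not given in the sources used here. Symbols, positions, exon lengths and transcripts came from GENCODE M21 (same build), which named 55141 identifiers; the rest held at most 0.00465% of a library's counts. The members and gene lists were chosen with earlier results of these data known.

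Counts were tested in R 4.3.3 with edgeR 4.0.16 (filterByExpr with minimum count 10 and total 15, TMM, glmQLFit robust, glmQLFTest, group as the only term), with Benjamini-Hochberg adjustment over the 17778 genes that passed and a threshold of 0.05; DESeq2 1.42.0 was an alternative. CPM use TMM-scaled library sizes. Standard errors come from the test statistic. The common biological coefficient of variation was 9.05%. The fit was tested on simulated data. Pair ratios were tested with an exact two-sided permutation test over libraries (SciPy 1.17.1). P-values measure the spread between dishes only. Alternatives changed the scaling, the filter, the GC trend, the replicate block, the tool and the libraries used. Named genes were all members, the 2 largest called rises and falls of each list, the other paralogues, and the 5 profiles nearest to Rpl39l; further genes named were chosen after their values were seen. Amino acid sequences were not used here.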

Additional observations from a re-analysis of the deposited data

How the results depend on the processing

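Each member kept its direction in all 14 alternative fits, and the 7 calls lower held in every one. Rpl39l ranged from -2.19 (GC trend removed) to -2.04 (library totals) and Rpl22l1 from -2.41 to -2.25. The count of members called higher was 0 in the fit reported and 1 (Rps27l) with library totals, without expressing replicate 1 and without expressing replicate 2; leaving out 1 library in turn gave 0 to 1. The cause was not tested. Same-numbered libraries did not deviate together across all tested genes (correlations 0.02, -0.03 and 0.04), which cannot show whether they share a starting culture. The SD of same-numbered differences in log2 ratio was 0.0181 for Rps27l/Rps27, where the group SDs were 0.213 and 0.229. In the other pairs it was 0.0999 to 0.245, not below both group SDs. The replicate block changed no call of a member (0 higher and 7 lower). With it, 61 of the 74 other ribosomal protein genes were called lower. Leaving out each library gave 53 to 63 lower among those genes. The difference in the Rpl36al/Rpl36a log2 ratio reversed to -0.0725 without KO replicate 2 and -0.0235 without expressing replicate 3, and it ran from -0.0725 to 0.183 over all single omissions.

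The paralogue's share of a pair depends on the length used, by construction. With the longest transcript it was 12.0% in the libraries labelled KO and 31.9% in the expressing libraries for Rpl39l, 5.00% and 16.2% for Rpl22l1, 20.9% and 17.2% for Rpl7l1, and 20.3% and 19.7% for Rpl36al, in that order of groups. With no length it was 15.2% and 38.1%, 4.66% and 15.3%, 30.05% and 25.4%, and 28.6% and 27.8% for the same pairs, and 99.04% and 97.9% for Rps27l. With the reference transcript it was 12.0% and 31.9%, 15.4% and 40.04%, 16.1% and 13.2%, and 26.9% and 26.1%, and 98.6% and 96.9% for Rps27l. A change of length multiplies the ratio of a pair by the same factor in every library, so it cannot change the order of the groups. Depth limits Rps27 and Rpl36al most, with at most 130 and 163 counts in a library.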

Other observations

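Other ribosomal protein paralogues in the table went the same way where they passed. Of these 6 genes, 3 were called lower and 0 higher, beside 20.8% and 19.2% of all tested genes. Rpl10l, an intronless copy of Rpl10 known from male germ cells, had 11.9 ± 0.269 CPM in the libraries labelled KO and 22.97 ± 3.57 CPM in the expressing libraries (SD, n = 3 each; log2 fold change -0.95, SE 0.112, adjusted p = 1.87e-04, edgeR). Rps4l had 121 ± 7.05 CPM in the libraries labelled KO and 165.6 ± 35.2 CPM in the expressing libraries (-0.45, SE 0.132, adjusted p = 0.022, edgeR), and Rps27rt fell as given above. Rps27rt shared 91.1% of its 50-base windows and 89.5% of its 100-base windows, mostly with Rps27. Its fall therefore cannot be counted apart from that of Rps27. Rpl3l, known from striated muscle, was at 0.345 ± 0.147 CPM in the libraries labelled KO and 0.259 ± 0.154 CPM in the expressing libraries. It had a log2 fold change above 0 that did not pass (0.40, adjusted p = 0.56, edgeR). Rpl9-ps6 (-0.74, adjusted p = 0.0621, edgeR) and Rps19-ps3 (-0.33, adjusted p = 0.352, edgeR) did not pass either.

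Since Rps27l is a known p53 target, 15 other p53 targets were read beside it. In the libraries labelled KO, edgeR called 11 of them higher and 0 lower, and DESeq2 and an unadjusted p under 0.05 also gave 0 lower. The median of their log2 fold changes was 0.72, that of all tested genes was -0.01, and 19.2% of all tested genes were called higher. Plk2 (1.22, SE 0.0553) and Cdkn1a, the p21 cell cycle inhibitor (1.05, SE 0.0668), rose most among the listed genes. Rps27l at 0.15 lay below each of the 11 that passed and above each of the 4 that did not. Those 4 were Bax (-0.17), Bbc3 (-0.005), Sesn2 (0.07) and Aen (0.08).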
